A study of Mus musculus with 12 samples.

Results

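The amyloid secretases and amyloid-degrading enzymes examined here are 9 endogenous mouse genes: Adam10, Bace1, Psen2, Ncstn, Aph1a, Aph1b, Psenen, Ide and Mme. They were taken by gene name from a count table of 55573 genes, with earlier results of these data known. All 9 were among the 14008 genes with enough counts to be tested. RNA was sequenced from the right hippocampus of C57BL/6J mice aged 4.5 months, with 4 APP/PS1 and 2 WT animals of each sex. APP/PS1 mice (genotype APPSwe/Ps1dE9) hold 2 transgenes that a prion promoter element drives. One encodes the precursor protein as a mouse-human hybrid with the Swedish mutation, the other human presenilin 1 without exon 9, and each change causes inherited Alzheimer's disease. WT mice have neither. Both transgenes come on top of the mouse's own genes, and each sex rests on 2 WT animals. The comparison addressed here is whether the transcripts of the enzymes that make and clear amyloid differed between APP/PS1 and WT hippocampus, and between the sexes.

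The amyloid precursor protein is cut along alternative routes. An alpha-secretase, chiefly ADAM10 in neurons, cuts inside the amyloid sequence and so precludes amyloid formation, whereas the beta-secretase BACE1 makes the cut at its start. Gamma-secretase, a membrane complex of a presenilin, nicastrin (Ncstn), an APH1 protein and PEN-2 (Psenen), then cuts the remaining stub within the membrane and releases the amyloid peptide. Secreted peptide is broken down by zinc metallopeptidases such as neprilysin (Mme) and insulin-degrading enzyme (Ide).

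Of the 9 genes, Mme was lower in APP/PS1 mice, and the other 8 had no genotype difference past the FDR threshold in edgeR's test, over both sexes or in either sex. Mme, the membrane-bound neprilysin, had a log2 fold change of −0.63 (SE 0.117) over both sexes, a change of −35.2% with a 95% interval from −45.6% to −22.8%. The other 8 genes had log2 fold changes between −0.15 and 0.05, with SEs from 0.037 to 0.0745. Neither the interaction of genotype and sex nor the comparison of females with males called any of the 9. Of all genes tested, 1.84% (258 of 14008) were differentially expressed (DEGs) between APP/PS1 and WT over both sexes. Those called higher made up 1.69% of genes and those called lower 0.15% (21 genes). Called genes are those with an FDR under 0.1 in edgeR's quasi-likelihood test, adjusted over all genes tested.

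**Figure D1:**
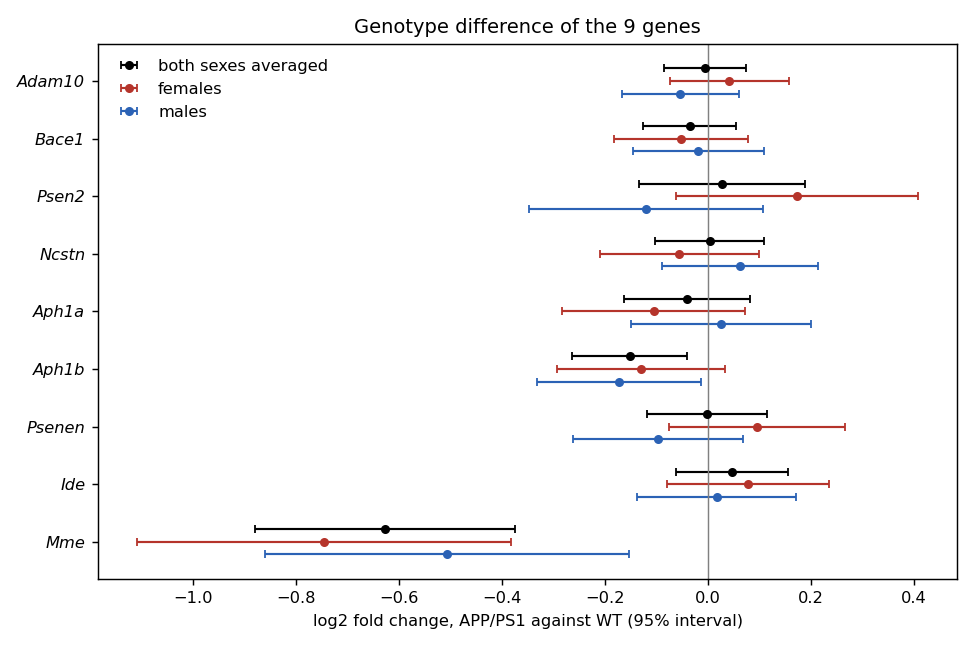
Log2 fold changes of the 9 genes in APP/PS1 against WT mice (horizontal axis) for both sexes averaged, females and males, with points at the fitted value and bars for the 95% interval. The 3 intervals of Mme lie below 0, and of the other genes only Aph1b has intervals wholly below 0, over both sexes and in males, where it was not called.

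The letters around the starts of Mme are shown because Mme alone of the 9 genes had a called difference. Mme (ENSMUSG00000027820) spans chr3:63241537-63386030 on the plus strand of GRCm38 and has no exon in common with another annotated gene. The RefSeq promoter table (GRCm38.p6) matched 8 of the 9 genes with 12 promoters and lists 3 starts for Mme. Each window runs from 250 bases before the start to 50 bases after it. The first 2 are printed 5′ to 3′, with capitals at matches on either strand to the letters TATAAA (the TATA box), CCAAT (the CCAAT box) or GGGCGG (the GC box). Of all 32851 promoters of this length, 13.6%, 37.4% and 35.7% hold these motifs.
Mme start 1, chr3:63294961-63295260, plus strand: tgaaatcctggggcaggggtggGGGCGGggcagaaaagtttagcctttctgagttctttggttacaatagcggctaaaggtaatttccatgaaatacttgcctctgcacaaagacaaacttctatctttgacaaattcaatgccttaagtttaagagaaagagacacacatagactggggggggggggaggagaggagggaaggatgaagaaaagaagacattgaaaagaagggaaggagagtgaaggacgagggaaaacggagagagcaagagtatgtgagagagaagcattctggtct
Mme start 2, chr3:63295622-63295921, plus strand: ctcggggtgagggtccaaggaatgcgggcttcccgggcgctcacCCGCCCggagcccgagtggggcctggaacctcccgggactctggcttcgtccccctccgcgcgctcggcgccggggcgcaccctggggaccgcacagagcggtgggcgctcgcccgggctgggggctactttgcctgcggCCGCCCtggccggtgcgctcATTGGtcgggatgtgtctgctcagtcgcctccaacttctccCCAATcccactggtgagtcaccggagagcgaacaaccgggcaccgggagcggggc
The first window has 46% GC and 4 CpG dinucleotides, near the median promoter with 52.7% GC and 7 CpG. The second has 73% GC and 32 CpG, and the third start, at chr3:63295845-63296144, has 72.3% GC and 29 CpG. The first window holds 1 GC box, the second 2 GC boxes and 2 CCAAT boxes, and the third 2 GC boxes and 1 CCAAT box, while none holds TATAAA. The counts are summed over the gene, so the use of each start cannot be read from them.

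Library totals ran from 36714316 to 50643565 counts on genes, and the 9 genes had between 205 (Mme) and 6069 (Bace1) counts in a library. Values below are CPM, counts scaled to a library of 1000000 counts after upper-quartile scaling. Markers of neurons and of hippocampal subfields were present in every library, and no gene of the 11 cell type marker lists was at 0 throughout. The first APP/PS1 female, the second WT female and the second APP/PS1 male stood apart through choroid plexus transcripts. Their level of Ttr, the transthyretin gene of that epithelium, was 3530, 3647 and 6362 CPM, against 2.69 to 18.3 CPM in the other 9 libraries. The model held 2 factors of unwanted variation (RUV). Factor 1 set these 3 libraries apart, at −0.46, −0.48 and −0.56 against 0.13 to 0.23 in the other 9. Factor 2 did not, at −0.15, −0.21 and 0.37 within a range of −0.45 to 0.54 in the other 9. Results are also given without these 3 libraries where they differ. In whole tissue, fewer cells of a type and less RNA per cell cannot be told apart.

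**Figure D2:**
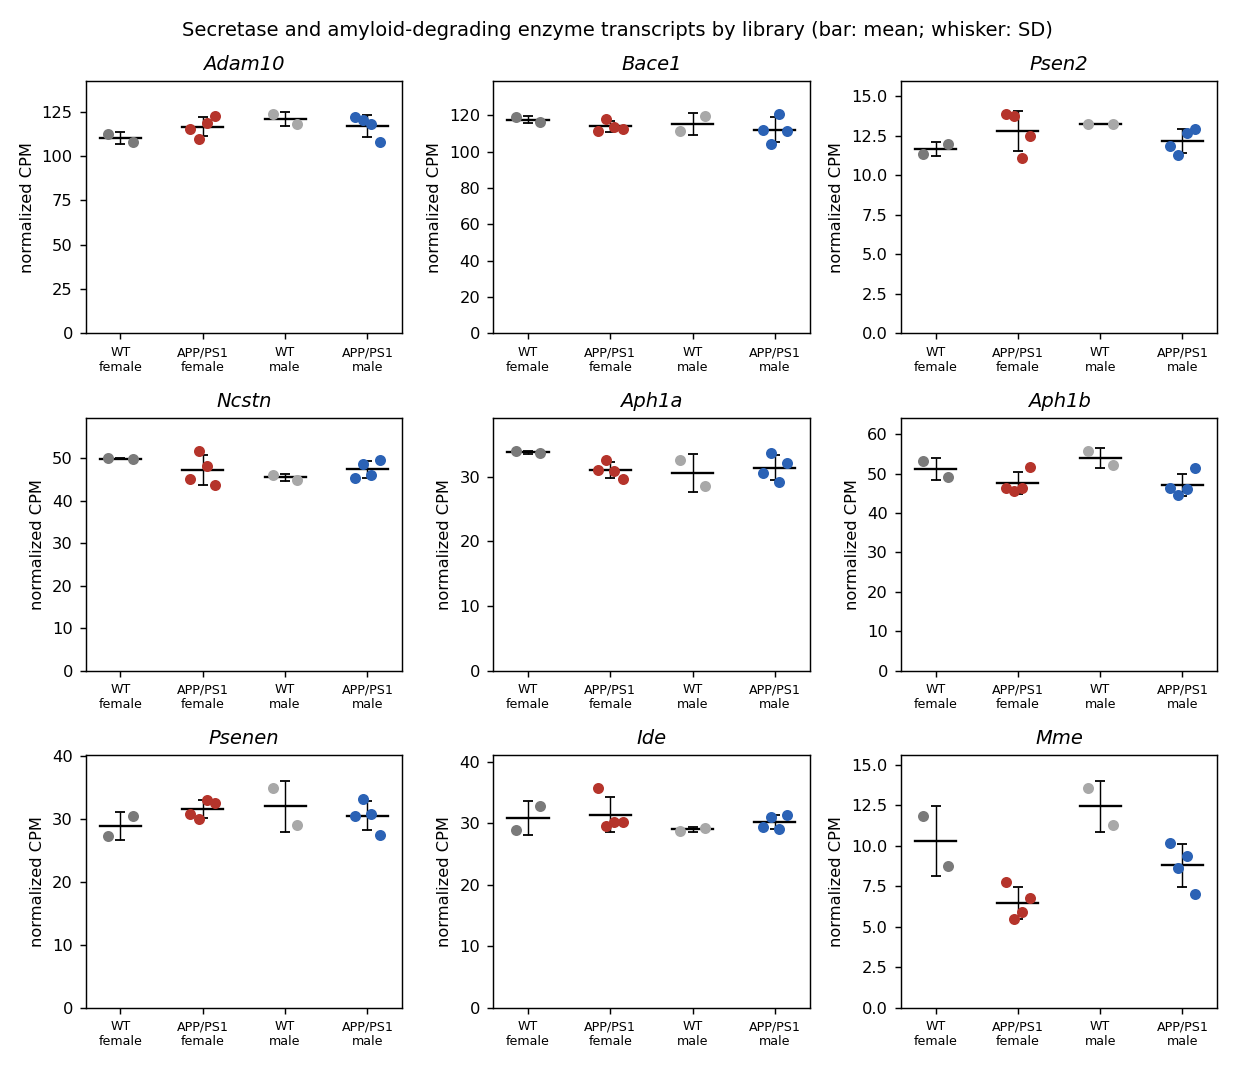
Normalized CPM (vertical axis, from 0) of the 9 genes in each library by group, with a bar at the group mean and a whisker of 1 SD (n = 4 APP/PS1 and 2 WT animals in each sex). Mme is the panel in which the APP/PS1 points of both sexes lie below the WT points of the same sex.

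Among the degrading enzymes, Mme stood at 7.75, 5.46, 5.92 and 6.77 CPM in the 4 APP/PS1 females and at 11.9 and 8.78 CPM in the 2 WT females. In males it stood at 10.2, 8.63, 9.37 and 7.05 CPM in APP/PS1 and at 13.6 and 11.3 CPM in WT. Each APP/PS1 animal was below both WT animals of its own sex, but the ranges of all 8 APP/PS1 and all 4 WT animals overlapped, since WT female 2 was below 2 of the APP/PS1 males. A gene with every APP/PS1 library below every WT library of the same sex was found in 0.4% of all genes tested (56 genes), and Mme was the only member among them. The group means were 6.47 ± 1.01 (SD, n = 4) CPM in APP/PS1 females, 10.3 ± 2.18 (n = 2) in WT females, 8.81 ± 1.33 (n = 4) in APP/PS1 males and 12.4 ± 1.59 (n = 2) in WT males.

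The averaged genotype difference of Mme had an adjusted p of 0.0208 in edgeR's quasi-likelihood test, the 89th smallest p among the genes tested. In an exact two-sided permutation test of the scaled values, with genotypes reassigned within each sex over 225 assignments, p was 0.00444, the smallest this design can give. By sex, the log2 fold change was −0.75 (SE 0.168, adjusted p = 0.0960 by edgeR) in females and −0.51 (SE 0.164, adjusted p = 0.592 by edgeR) in males. Females thus passed the threshold, where 0.75% of genes were called, and males, where 0.157% were called, did not. The difference between the sexes was itself tested, and the interaction was −0.24 (95% interval −0.75 to 0.28, adjusted p = 0.998 by edgeR). The female call was close to the threshold and was kept in only 8 of 25 alternative analyses, while the averaged call was kept in 23 of 24. The exception was the analysis without WT female 1, in which the averaged log2 fold change was −0.49 (adjusted p = 0.144 by edgeR) and that in females −0.45 (adjusted p = 0.912). Without the 3 choroid plexus-rich libraries and without RUV factors, the averaged value was −0.73 (adjusted p = 0.0678 by edgeR) and the female value −0.98 (adjusted p = 0.191).

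**Figure D3:**
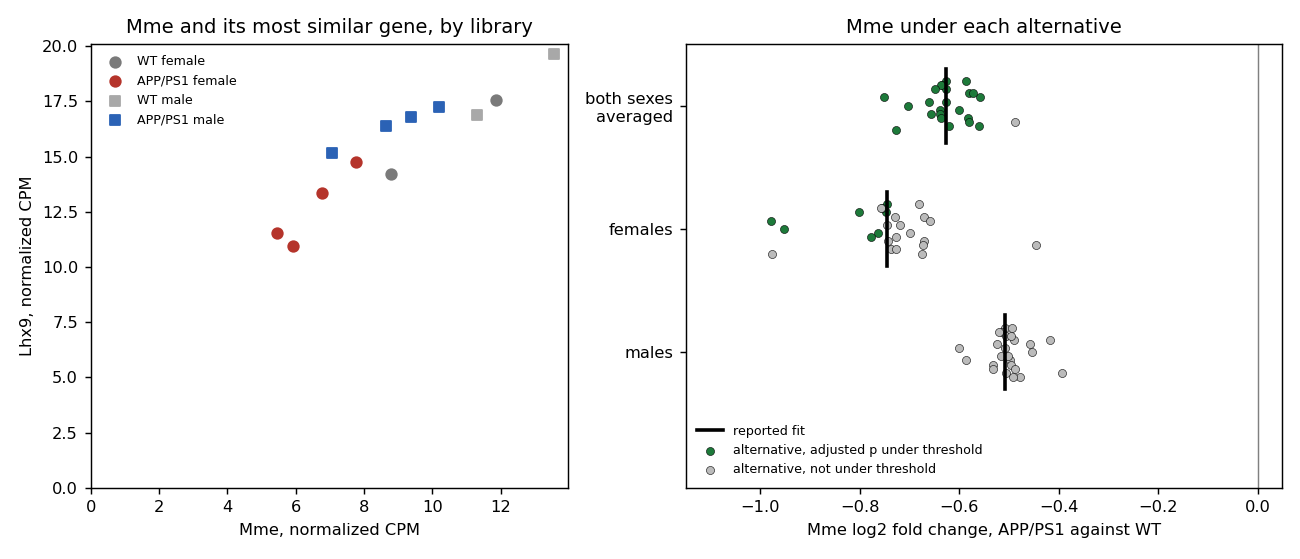
Left: normalized CPM of Mme (horizontal) against Lhx9 (vertical) in the 12 libraries, by group, both axes from 0, with Pearson r = 0.93. Right: log2 fold change of Mme in each alternative analysis (points) and in the reported one (black bar) for both sexes averaged, females and males, where all points lie below 0 and green points passed the threshold.

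Over both genotypes and within APP/PS1, though not within WT, where Psen2 was at −0.24, Mme also had the largest fitted difference between the sexes among the 9 genes. The log2 fold change of females against males was −0.29 (SE 0.124, adjusted p = 0.804 by edgeR) over both genotypes, −0.41 (SE 0.138, adjusted p = 0.857 by edgeR) within APP/PS1 and −0.18 (SE 0.200, adjusted p = 0.991 by edgeR) within WT. None of these passed the threshold, where 0.0999%, 0.0857% and 0.05% of all genes were called. The spread between animals was wide for Mme, with a biological coefficient of variation of 13.4% against a median of 8.03% over all genes tested and 5.03% to 8.73% for the other 8.

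Ide, the cytosolic insulin-degrading enzyme, did not pass the test of genotype. It stood at 35.7, 29.6, 30.2 and 30.2 CPM in APP/PS1 females, 28.9 and 32.8 in WT females, 29.5, 31.0, 29.2 and 31.3 in APP/PS1 males, and 28.8 and 29.3 in WT males. The highest value of each female group belonged to its choroid plexus-rich library. Over both sexes the log2 fold change was 0.05 (SE 0.0502, 95% interval −0.06 to 0.16, adjusted p = 0.831 by edgeR), an interval for the change from WT of −4.12% to 11.4%.

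Adam10, the alpha-secretase, was measured at 115, 109.8, 119 and 122 CPM in APP/PS1 females, 112 and 108 in WT females, 122, 120.4, 118 and 108 in APP/PS1 males, and 124 and 118 in WT males. The ranges of APP/PS1 and WT overlapped in both sexes. Its log2 fold change of −0.01 (SE 0.037, adjusted p = 0.978 by edgeR) had the narrowest interval of the 9 genes, a change from WT of −5.76% to 5.29%.

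Bace1, the beta-secretase, did not pass the test either. It stood at 111, 118, 114 and 113 CPM in APP/PS1 females, 119 and 116 in WT females, 112, 104, 121 and 111 in APP/PS1 males, and 111 and 119.6 in WT males. The log2 fold change over both sexes was −0.04 (SE 0.0415, adjusted p = 0.851 by edgeR), with an interval for the change from −8.3% to 3.83%. Exons of Bace1 (chr9:45838580-45864399) share 2061 bases with 3 genes on the other strand. The libraries were directional, but the strand setting of the counting was not stated, so reads from those genes could be part of its count. The same limit holds for Aph1a, Psenen and Ncstn, whose exons share 445, 230 and 195 bases with genes on the other strand.

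The gamma-secretase genes held 5 of the 9 members. Psen2 encodes presenilin 2, a catalytic subunit. It stood at 13.9, 13.7, 11.1 and 12.5 CPM in APP/PS1 females, 11.3 and 11.96 in WT females, 11.8, 11.3, 12.7 and 12.96 in APP/PS1 males, and 13.2 in both WT males. Every APP/PS1 male was below the WT males, as was the case for 4.34% of all genes tested, while in females the ranges overlapped. The log2 fold changes were 0.17 (SE 0.109) in females and −0.12 (SE 0.105) in males, and neither passed the threshold. Their difference of 0.29 (SE 0.153, adjusted p = 0.998 by edgeR) had the smallest interaction p of the 9 genes. No gene of the 14008 (0%) was called for the interaction by this test or by DESeq2, and 2 were by the likelihood ratio test. At an unadjusted p under 0.05 there were 500 genes (3.57%), with none of the 9 among them.

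Ncstn encodes nicastrin, the subunit that receives substrates. Its values were 45.1, 51.6, 48.0 and 43.6 CPM in APP/PS1 females, 49.9 and 49.7 in WT females, 45.4, 48.5, 45.9 and 49.5 in APP/PS1 males, and 46.0 and 44.9 in WT males. Values of APP/PS1 animals lay on both sides of the WT values in females, and the ranges overlapped in males. Over both sexes the log2 fold change was 0.004 (SE 0.0491, interval for the change from −6.84% to 7.93%).

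Psenen encodes PEN-2, which the complex needs for its maturation. It was measured at 30.8, 29.95, 33.0 and 32.6 CPM in APP/PS1 females, 27.3 and 30.5 in WT females, 30.6, 33.2, 30.9 and 27.5 in APP/PS1 males, and 34.9 and 29.1 in WT males. The WT males alone spanned more than the 4 APP/PS1 males, and the fitted averaged difference was within 0.01 of 0 on the log2 scale (SE 0.0539, adjusted p = 0.999 by edgeR).

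Aph1a and Aph1b encode alternative scaffold subunits of the complex. Aph1a stood at 31.1, 32.6, 30.9 and 29.7 CPM in APP/PS1 females, 33.97 and 33.6 in WT females, 30.6, 33.7, 29.2 and 32.1 in APP/PS1 males, and 32.6 and 28.5 in WT males. APP/PS1 females were all below the WT females, as were 6.61% of all genes, while in males the ranges overlapped. The log2 fold change over both sexes was −0.04 (SE 0.0566, adjusted p = 0.883 by edgeR).

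Aph1b did not pass the threshold. Its fitted genotype difference was the second largest of the 9 genes over both sexes and in males, while in females that of Psen2 was larger. It was measured at 46.4, 45.6, 46.4 and 51.7 CPM in APP/PS1 females and at 53.2 and 49.2 CPM in WT females. In males it was at 46.4, 44.7, 46.0 and 51.3 CPM in APP/PS1 and at 55.7 and 52.1 CPM in WT. All APP/PS1 males lay below both WT males, as for 4.34% of all genes tested, whereas APP/PS1 female 4 lay above WT female 2. The averaged log2 fold change was −0.15 (SE 0.0519, 95% interval −0.26 to −0.04), a change of −9.97%, with an adjusted p of 0.314 by edgeR. The exact permutation p was 0.0133, not adjusted for the 9 genes. It was called in 1 of 24 alternatives, without APP/PS1 male 4, where its adjusted p was 0.0476 by edgeR.

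The mouse has a near copy of Aph1b. Aph1b (chr9:66775202-66795490, minus strand) and Aph1c (chr9:66814994-66834726, minus strand) lie next to each other on GRCm38, and their coding sequences are 96.8% identical over 770 aligned bases. The first 90 coding bases are shown, 5′ to 3′. Set side by side without gaps, the copies differ there at 11 positions. Capitals mark the bases that differ.
Aph1b, coding bases 1 to 90: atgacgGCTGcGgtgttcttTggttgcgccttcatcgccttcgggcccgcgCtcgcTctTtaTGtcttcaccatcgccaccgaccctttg
Aph1c, coding bases 1 to 90: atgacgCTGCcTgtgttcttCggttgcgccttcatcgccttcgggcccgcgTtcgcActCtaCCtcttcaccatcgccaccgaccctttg
Farther on, the copies share a stretch of 341 coding bases without a difference. Of all 150-base windows of the Aph1b transcript, the length of a read, 4.77% (227 of 4761) also occur in Aph1c, and how such reads were counted was not stated. Aph1a is 63.4% identical to Aph1b and shares no such window with it. Aph1c ran from 9.42 to 17.7 CPM, with its highest values, 15.4, 17.7 and 14.2 CPM, in the 3 choroid plexus-rich libraries. Its averaged log2 fold change was −0.01 (SE 0.0849, adjusted p = 0.980 by edgeR). Summed over both copies, APP/PS1 animals stood at 59.3 ± 2.71 CPM (SD, n = 8, range 55.8 to 62.4) and WT animals at 64.4 ± 1.37 CPM (n = 4, range 63.4 to 66.4). These ranges did not overlap. A weaker criterion, APP/PS1 below WT within each sex, was met by 0.4% of the single genes tested. The sum was formed after the values of Aph1b had been seen and is given without a test. That share is therefore no measure of chance for it.

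**Figure D4:**
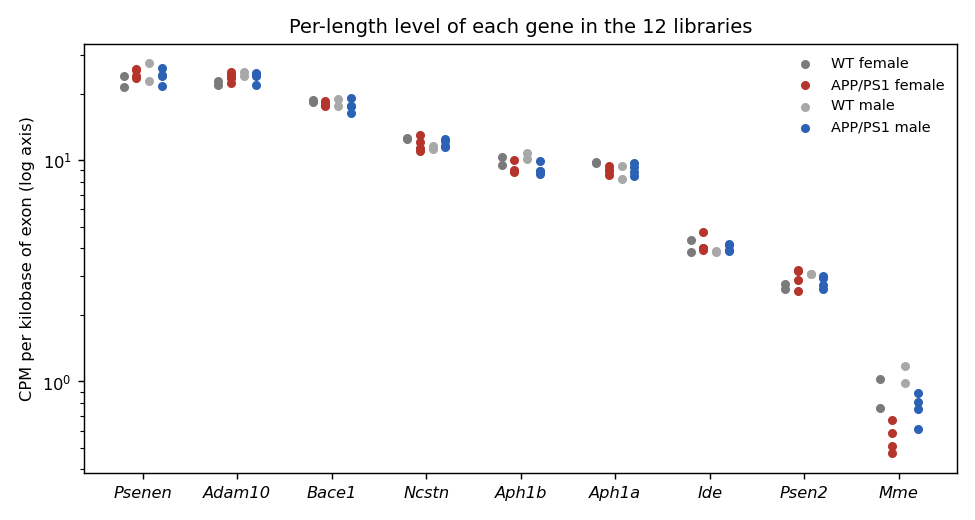
CPM per kilobase of exon (vertical, log axis) of the 9 genes in the 12 libraries by group, ordered by mean. Psenen and Adam10 overlap at the top near 24, and Mme lies lowest, below every value of Psen2.

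Levels of different genes were compared per kilobase of exon. Psenen led with a mean of 24.2 ± 1.79 CPM per kilobase (SD, n = 12), followed by Adam10 with 23.7 ± 1.16, Bace1 with 18.0 ± 0.754 and Ncstn with 11.9 ± 0.634. Aph1b with 9.502 ± 0.701 and Aph1a with 9.14 ± 0.532 came next, then Ide with 4.07 ± 0.268, Psen2 with 2.88 ± 0.222 and Mme with 0.770 ± 0.216. Psenen exceeded Adam10, and Aph1b exceeded Aph1a, in only 8 of 12 libraries, and the ranges of each pair overlapped. Each other neighbouring pair kept its order in all 12 libraries, and Psen2 was 3.74 times the level of Mme. The annotated exon length enters these levels. With the shorter lengths of the basic annotation, the means of Psenen, Psen2 and Ide became 37.5, 5.47 and 6.15 CPM per kilobase, more than 1.5 times those above. Psenen then lay above Adam10 in all 12 libraries without overlap, Aph1a above Aph1b in 10, and Ide above Psen2 in only 10, while Psen2 stood at 5.28 times Mme. Under both lengths, Adam10 lay above Bace1, Bace1 above Ncstn, and the other 8 genes above Mme in all 12 libraries.

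The 9 genes did not move together across libraries. Pearson's r was taken over the 12 libraries from scaled log2 CPM, without removal of the RUV factors. Over the 36 pairs of members it ran from −0.75 to 0.75 with a median of −0.06, and 14 were positive. Ncstn rose with Aph1a (r = 0.75) and against Adam10 (r = −0.75), and Psenen rose with Adam10 (r = 0.71). Mme followed Aph1b at r = 0.54. These are descriptions of 12 libraries that differed in depth, choroid plexus transcripts, sex and genotype. The part of these differences in the correlations was not tested.

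The genes most like each member in that measure are also given as descriptions. Mme was most like Lhx9, a LIM-homeodomain transcription factor, with r = 0.93, and Plekha3 with r = 0.86. Lhx9 ran from 10.9 CPM in APP/PS1 female 3 to 19.7 CPM in WT male 1, and the females of each genotype lay mostly below its males, as for Mme. Ide was most like Elovl1 (r = 0.92), a fatty acid elongase, and Igsf9 (r = 0.90). Adam10 was most like the mitochondrial ribosomal RNA mt-Rnr2 and the ribosomal protein gene Rps16, both with r = 0.95. Bace1 was most like Blcap (0.88) and Nlgn3 (0.84), Psen2 like Ddhd2 (0.86) and Cntn5 (0.85), and Ncstn like Zfyve26 (0.91) and Mapk7 (0.87). Aph1a was most like Syne1 (0.86) and A730017L22Rik (0.83), Aph1b like Lfng (0.90) and Gpr161 (0.87), and Psenen like Acat1 (0.93) and Psmd8 (0.92). Psmd8, a proteasome subunit gene, and Rps16 are transcribed in every cell.

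The wider machinery around these enzymes was covered by 7 lists with 70 genes, of which 65 were tested. Over both sexes 1 of them (1.54%) was called, a share near the 1.84% of all genes. Their median log2 fold change was −0.001, beside 0.009 for all genes tested. At an unadjusted p under 0.05, 7 of the 65 were higher and 7 of the 65 lower, larger shares than the 6.15% and 3.31% of all genes. No list gene was called in females or in males by the quasi-likelihood test. At an unadjusted p under 0.05, 8 of the 65 were higher and 5 lower in females, larger shares than the 6.11% and 3.41% of all genes. In males, 2 of the 65 were higher, a share near the 3.2% of all genes, and 3 lower, a share above 1.94%. These shares were not tested.

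The called gene was Plau, the urokinase-type plasminogen activator, and plasmin, which arises from plasminogen, can digest amyloid. Plau stood at 4.03, 4.23, 5.23 and 3.07 CPM in APP/PS1 females and at 1.32 and 2.79 CPM in WT females. In males it stood at 5.18, 4.32, 3.12 and 3.996 CPM in APP/PS1 and at 2.53 and 2.33 CPM in WT. The lowest APP/PS1 value lay above the highest WT value. A weaker criterion, APP/PS1 above WT throughout within each sex, was met by 1.86% of all genes. The log2 fold change was 0.92 (SE 0.206, adjusted p = 0.0535 by edgeR) from 50 to 227 counts a library, and the call was kept in 16 of 22 alternatives. Of the other 9 tested amyloid-degrading proteases, none was called, and Ece2, Mmel1, Mmp9 and Plg were too low to be tested.

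**Figure D5:**
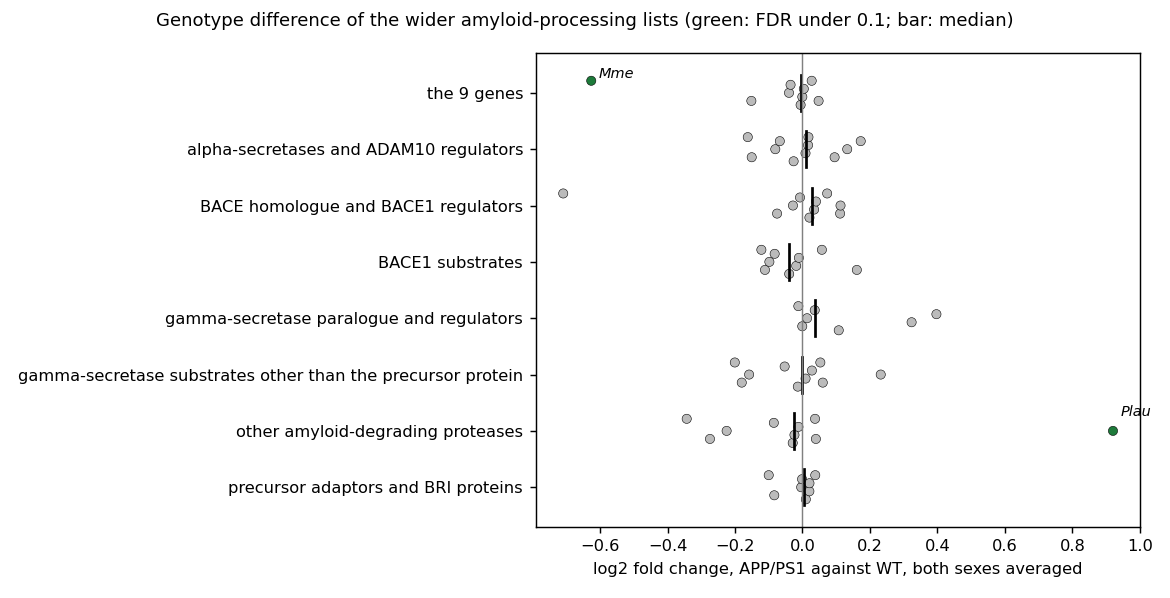
Log2 fold change in APP/PS1 against WT mice, both sexes averaged (horizontal), for the 9 genes and the tested genes of 7 lists of related genes, with a black bar at each median. Mme at −0.63 and Plau at 0.92, in green, were the called genes, and the medians lie between −0.04 and 0.04.

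Around the alpha-secretase, 11 of 12 list genes were tested and none was called. The 2 with the smallest p were Tspan14, a tetraspanin that escorts ADAM10 to the cell surface, and Timp3, a metalloprotease inhibitor. Tspan14 had a log2 fold change of 0.17 (SE 0.0514, adjusted p = 0.194 by edgeR) and Timp3 one of −0.15 (SE 0.0492, adjusted p = 0.272 by edgeR). Timp3 was highest in the choroid plexus-rich libraries, at 108, 121 and 129 CPM against 79.8 to 94.99 CPM in the others.

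Around BACE1, none of 10 genes (its homologue Bace2 and regulators) and none of 9 substrates was called. Rtn4, a reticulon, and Vps26a, a retromer subunit that sorts cargo out of endosomes, each had a log2 fold change of 0.11 (adjusted p = 0.329 and 0.383 by edgeR). The substrates Sez6, at −0.12, and Aplp1, at −0.08, had adjusted p of 0.470 and 0.573. Bace2, the homologue of Bace1, was singled out after its values were seen, since it had the lowest fitted value of the lists, −0.71 (SE 0.359, adjusted p = 0.593 by edgeR). Bace2 stood at 1.81 to 3.66 CPM in the 8 APP/PS1 animals and at 1.40, 5.20, 5.003 and 6.40 CPM in the WT animals, so WT female 1 was below all others.

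Around gamma-secretase, none of 7 genes (the near copy Aph1c and regulators) and none of 10 further substrates was called. Gsap, the gamma-secretase activating protein, had a log2 fold change of 0.32 (SE 0.120, adjusted p = 0.370 by edgeR). Ifitm3, an interferon-induced gamma-secretase modulator, had 0.40 (SE 0.179, adjusted p = 0.525 by edgeR), with 0.82 in females and −0.02 in males. Its interaction of genotype and sex, 0.84, was not called, and the WT males lay apart, at 5.82 and 10.6 CPM. Among substrates, Notch3 had 0.23 (adjusted p = 0.434 by edgeR) and Nectin1 −0.18 (adjusted p = 0.522). Of 8 adaptors and BRI proteins that bind the precursor, none was called, with Apba2 at −0.08 and Itm2c at −0.10 the smallest p.

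Markers of cell types were set beside these values. Of 5 microglial markers, 3 were called higher, and their summed level was 390 to 583 CPM in APP/PS1 and 262 to 312 CPM in WT. Interneuron markers summed to 707 to 841 CPM in APP/PS1 and 779 to 845 CPM in WT, with none of 4 called and a median log2 fold change of −0.08. Neuronal markers summed to 7038 to 7700 CPM in APP/PS1 and 7183 to 7929 CPM in WT, with none of 4 called. No marker of the other 8 lists was called over both sexes. The part of cell composition in the difference of Mme or Plau was not tested.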

How the data were processed

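Poly-A RNA of the right hippocampus was sequenced as directional libraries of 150-base paired-end reads. Per the authors, Trimmomatic removed adapters and poor bases, STAR placed the reads on GRCm38 and HTSeq assigned them to Ensembl genes. The deposited values are these raw counts. Versions, the annotation release, and the strand and multi-mapping settings were not given in the sources used here. Names, positions and lengths came from GENCODE M21 (55480 of 55573 identifiers matched).

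A gene was tested where its log2 CPM reached 1 in 3 or more libraries (14008 genes). Upper-quartile scaling was used with 2 RUV factors, from a re-implementation of RUVg whose controls left out the 5000 genes with the smallest p of a preliminary fit. One model held all 12 libraries (edgeR 4.0.16, quasi-likelihood test, R 4.3.3), with two-sided contrasts. Benjamini-Hochberg adjustment covered every gene tested. SEs and 95% intervals belong to the fitted log2 fold changes. At this depth the spread between animals sets the precision for all 9 genes. The scripts were tested on simulated data.

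The 9 genes, the wider lists, the markers, the tests and the alternatives were chosen with earlier results of these data known. Genes named are the 9 members, the 2 genes most correlated with each over the 12 libraries, and, of each wider list, every gene with an FDR under 0.1 or else the 2 with the smallest p. Alternatives were the likelihood ratio test, DESeq2 1.42.0, TMM scaling, other filters, fewer or no RUV factors, a choroid plexus score, each sex alone, a replicate block, an FDR of 0.05, and leaving out libraries. A first pass by likelihood ratio test and the basic exon lengths were added after seeing the data. Within groups, a chi-square test of counts gave 11.6 to 52.0 per degree of freedom over 14 pairs of libraries, so each counted as a separate sample.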

Additional observations from a re-analysis of the deposited data

Results flagged for a closer look

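In 4 libraries of APP/PS1 females, 2 of the 9 genes had a highest library far from the rest, measured as its gap to the next library over the range of the group. For Aph1b this ratio was 0.861, with APP/PS1 female 4 at 51.7 CPM and the other 3 between 45.6 and 46.4 CPM. For Ide it was 0.906, with APP/PS1 female 1, a choroid plexus-rich library, at 35.7 CPM and the other 3 between 29.6 and 30.2 CPM. Both exceed Dixon's 95% critical value for 4 samples. With 18 groups of 4 libraries examined, chance flags about 1 in 20.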

How the results depend on the processing

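Over both sexes, 1 of the 9 genes (Mme) was called in the reported analysis and in 22 of 24 alternatives, and leaving out 1 animal gave 0 to 2: none without WT female 1, and Mme with Aph1b without APP/PS1 male 4. In females the count fell from 1 to 0 with TMM scaling (Mme adjusted p = 0.101), without RUV factors (0.269), with 1 RUV factor (0.200), with the choroid plexus score (0.204), with the first pass by likelihood ratio test (0.104), at an FDR of 0.05, with each sex fitted alone (0.322) and without the choroid plexus-rich libraries (0.191), and was 0 to 1 on leaving out 1 animal (0 without APP/PS1 female 2 or 3, APP/PS1 male 1, 3 or 4, WT female 1 or WT male 1 or 2). The direction of Mme was kept throughout. Counts in males, for the interaction and between the sexes were 0 throughout. With the replicate number as a block, Mme was at −0.56 (adjusted p = 0.0703) over both sexes and −0.66 (adjusted p = 0.104) in females, the count was 1 over both sexes and 0 in females, and Plat was called in place of Plau. Of 14 pairs of libraries that share a number, 4 correlated above 0.1, over a range from −0.67 to 0.73, so the numbers were not taken to pair animals. Uncalled genes near 0 changed sign over both sexes. Ncstn was at −0.0084 with DESeq2, −0.0053 with TMM, −0.018 without the filter, −0.011 with no RUV factors, 1 factor or the choroid plexus score, and −0.0078 without the choroid plexus-rich libraries, and Psen2 at −0.0061 without the filter. Psenen was at 0.0018 with the likelihood ratio first pass, 0.0021 under the CPM filter, 0.030 with no RUV factors (0.028 with 1 factor or the score) and 0.057 without the choroid plexus-rich libraries. Adam10 was at 0.017 with no RUV factors, 0.018 with 1 factor or the score and 0.0011 with the replicate block, where Ide was at −0.027 in males. On leaving out 1 animal, the averaged value ran from −0.023 to 0.021 for Ncstn, −0.019 to 0.016 for Adam10, −0.047 to 0.066 for Psenen and −0.087 to 0.020 for Aph1a, the male value from −0.064 to 0.032 for Bace1, −0.078 to 0.14 for Aph1a, −0.20 to 0.025 for Psenen and −0.015 to 0.035 for Ide, and the female value of Ide from −0.0052 to 0.12. The call of Plau was lost without APP/PS1 female 2, APP/PS1 male 2, WT female 1, WT male 1 or WT male 2, and the number of called list genes ran from 0 to 2. The number of DEGs over both sexes was 258, against 382 with the likelihood ratio test, 386 with DESeq2, 173 without RUV factors, 172 at an FDR of 0.05 and 66 without the choroid plexus-rich libraries. Leaving out a WT animal leaves 1 in that sex, which is assumed to vary like the other groups. The cause of these changes was not tested. With 2 WT animals a sex, the male interval of Mme, from −44.9% to −10.1%, shows the precision reached.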
